A study of Homo sapiens with 6 samples.

Results

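Divergent-transcript long non-coding RNAs carry the suffix -DT and are named after the protein-coding gene at whose promoter they begin. The deposited tables hold 590 such symbols among 62696 genes. Of these, 184 had a mean of at least 0.5 CPM (counts scaled to the library's total in genes) over the 6 libraries, and they are described here beside the 184 partner genes named before the suffix. They were selected on their mean level over both groups. Near the minimum that choice is not free of the difference, since a member can pass through the group where it is higher. NUDT19-DT, MFF-DT, ACAD9-DT and CTCF-DT were below 0.5 CPM in each control siRNA library. ADM-DT, NEMP2-DT, MAGOH-DT and ZNF230-DT were below it in each LINC01638 siRNA library. These are among the largest changes below. The other 406 -DT genes lay below this minimum, of which 119 had enough counts to be tested and 48 had no count in any library. All 184 -DT RNAs and all 184 partner genes passed the filter on low counts and were tested. Just inside the minimum were ZNF747-DT with a mean of 0.503 CPM and TWSG1-DT with 0.505 CPM, and just outside it were SPOPL-DT with 0.495 CPM and DDX19A-DT with 0.488 CPM.

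RNA came from 12Z cells, an established human epithelial cell line derived from endometriosis, harvested 72 h after lipid transfection. In 3 libraries the cells had received a single siRNA against the long non-coding RNA LINC01638 (labelled LINC01638_2), and in 3 libraries a commercial control siRNA. Both groups were grown and transfected alike, and each has replicates A, B and C. With 1 siRNA and no rescue, the loss of LINC01638 and any other effect of that siRNA cannot be told apart. The labels do not say that the replicates were separate cultures, so the spread that p-values are set against is one between libraries and may be technical. In bulk RNA, fewer cells of a type and less RNA per cell cannot be told apart either.

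RNA polymerase II initiates in both directions at most active mammalian promoters, from a pair of opposed start sites within 1 nucleosome-depleted region. In the coding direction U1 snRNP binding to 5′ splice sites shields the nascent RNA from early polyadenylation. In the divergent direction poly(A) signals are met early, the Integrator and restrictor complexes end transcription, and the nuclear RNA exosome, led to its targets by the helicase MTREX with its NEXT and PAXT adaptors, degrades most of the product. The -DT genes are the divergent RNAs that are long, spliced or stable enough to have been annotated. Their steady-state level reflects initiation, elongation and decay together, and total RNA-seq does not separate these.

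The 6 libraries held between 45617234 and 58148664 counts in genes. From here on CPM values of single genes carry TMM scaling (a trimmed mean of M-values), which sets the bulk of genes equal between libraries, unless library totals are named. LINC01638 itself had 2.29, 1.98 and 2.05 CPM in LINC01638 siRNA libraries, against 7.64, 7.65 and 7.81 CPM in control siRNA libraries (log2 fold change −1.87, SE 0.111, adjusted p = 3.73e-11). The groups did not overlap, and the knockdown was present in each library. RHOB (log2 fold change −1.97) fell and HDAC1 (log2 fold change 1.06) rose. Over all protein-coding genes tested 28.6% were higher and 36.3% lower, and the marker counts that follow were not tested against these shares. Of 8 epithelial markers, 7 fell, among them KRT19 (−1.39), CDH1 (−1.18), KRT8 (−0.52) and KRT18 (−0.43), and EPCAM rose (1.86). All 8 were detected, the keratins at high levels and the other defining markers EPCAM, PAX8 and CDH1 at means of only 1.38, 1.97 and 3.58 CPM with LINC01638 siRNA and 0.377, 3.57 and 8.14 CPM with control siRNA. The stromal list was expressed as well, with THY1 at means of 294 CPM with LINC01638 siRNA and 407 CPM with control siRNA, far above EPCAM, PAX8 and CDH1. Of its 6 markers 4 fell and 2 rose, and their summed level was 557 to 573 CPM with LINC01638 siRNA and 682 to 769 CPM with control siRNA. The endothelial list summed to 10.5 to 12.5 CPM with LINC01638 siRNA and 12.7 to 15.4 CPM with control siRNA, with KDR (−0.62), VWF (0.86) and CDH5 (0.77) past the test. The immune list summed to 34.5 to 35.6 CPM with LINC01638 siRNA and 46.5 to 53.6 CPM with control siRNA, nearly all of it CD14 (−0.50), with CD3E at 0. The part of these shifts in the results below was not tested.

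In GENCODE 29 (GRCh38), 181 of the 184 -DT genes have a position, and each of the 181 lies on the strand opposite to its partner. All 184 partners are protein-coding. The -DT genes were typed as antisense RNAs, long intergenic RNAs, processed transcripts or bidirectional-promoter RNAs in that release, and 46 had a single exon. Distances were taken between the closest annotated transcript starts of both genes, which gives the shortest distance possible. By that measure the -DT start site lay a median of 121 bases upstream of the partner start site (interquartile range 44 to 235 bases). It lay within 1000 bases in 175 of 181 pairs. With a single RefSeq start per gene some pairs stood much further apart, up to 142085 bases for RFX3-DT, while promoter windows overlapped in 106 of 135 pairs. By the closest starts, the -DT RNA began downstream of the partner start in 19 pairs, so that the heads of both genes cross. In 47 pairs some exon sequence was annotated on both strands. The exceptions beyond 1000 bases included KCNC4-DT, whose start was 1356 bases from that of KCNC4 in this release and 327 bases from it in RefSeq.

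**Figure D1:**
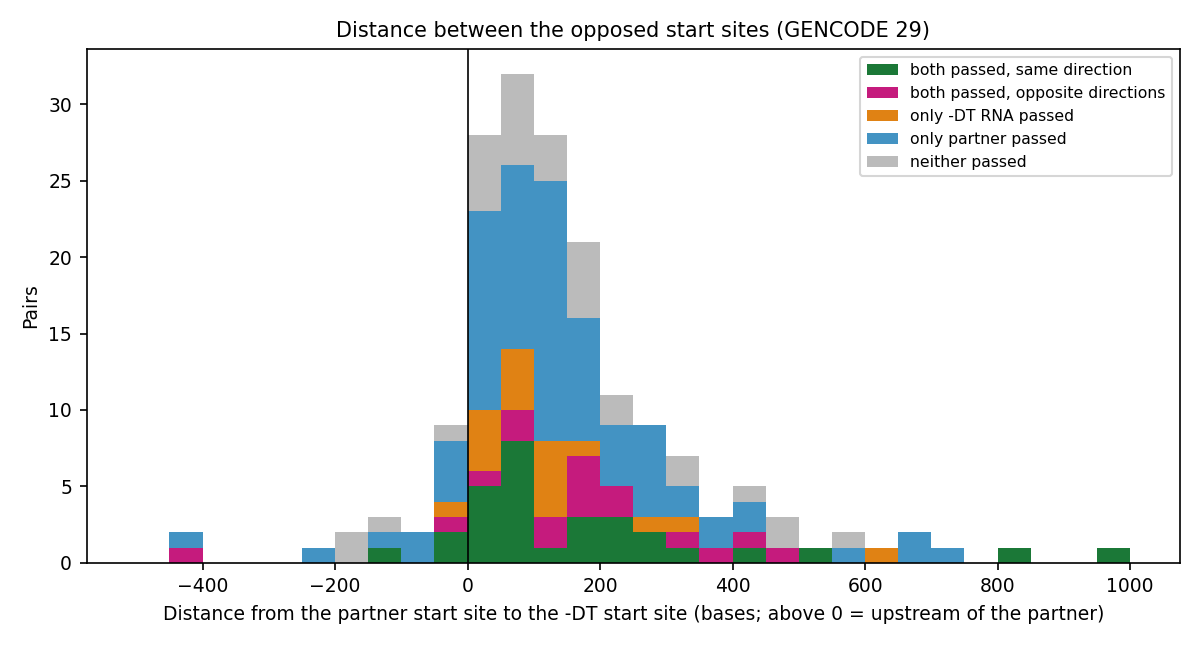
Number of pairs (vertical axis) by the distance in bases from the partner start site to the -DT start site, at the closest annotated starts (horizontal axis, above 0 for a -DT start upstream of the partner), coloured by which gene of the pair passed the test. Most pairs stand between 0 and 250 bases, and 6 pairs beyond 1000 bases are not drawn.

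Where promoter windows overlap, the shared promoter can be read in the sequences. RefSeq promoter windows (GRCh38.p14, from 250 bases before to 50 bases after the start site) were matched for 143 -DT genes and 160 partner genes. Both windows were present for 135 pairs. They lay on opposite strands in all 135, and in 106 of the 135 they overlapped, with a median of 186 shared bases over all 135 pairs. The windows of MMADHC-DT, CTBP1-DT and TBC1D22A-DT share 0 bases with that of the partner, and the window of ECI2-DT shares 4. The windows of 10 -DT genes, chosen by hand and all from pairs with overlapping windows, are shown as examples. In RRAGC-DT, SUCLG2-DT, DPH5-DT and BAIAP2-DT both genes passed the test in the same direction, and in MFF-DT, HCCS-DT, ZNF132-DT and RNASEH1-DT in opposite directions. In MAGOH-DT and ZNF230-DT the -DT RNA passed and its partner did not. Each window shown is written 5′ to 3′ on the strand of the -DT RNA, so transcription of the partner runs towards the left. Capitals mark the bases that also belong to the promoter window of the partner.
RRAGC-DT, chr1:38859643-38859942, plus strand: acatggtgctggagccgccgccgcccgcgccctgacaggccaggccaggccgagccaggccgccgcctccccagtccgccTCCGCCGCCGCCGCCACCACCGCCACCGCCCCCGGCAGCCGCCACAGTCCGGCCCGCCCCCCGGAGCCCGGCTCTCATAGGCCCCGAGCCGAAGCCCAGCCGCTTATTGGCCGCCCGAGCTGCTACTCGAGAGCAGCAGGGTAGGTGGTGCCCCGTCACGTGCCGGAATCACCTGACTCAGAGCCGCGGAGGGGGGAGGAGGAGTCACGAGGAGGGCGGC
SUCLG2-DT, chr3:67654447-67654746, plus strand: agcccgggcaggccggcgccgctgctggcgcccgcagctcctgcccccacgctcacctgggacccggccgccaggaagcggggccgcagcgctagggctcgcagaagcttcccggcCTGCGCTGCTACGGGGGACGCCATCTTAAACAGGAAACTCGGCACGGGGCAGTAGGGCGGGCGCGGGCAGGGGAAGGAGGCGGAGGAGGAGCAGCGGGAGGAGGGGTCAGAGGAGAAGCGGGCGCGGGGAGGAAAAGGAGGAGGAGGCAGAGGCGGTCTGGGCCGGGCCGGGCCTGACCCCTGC
DPH5-DT, chr1:101025596-101025895, plus strand: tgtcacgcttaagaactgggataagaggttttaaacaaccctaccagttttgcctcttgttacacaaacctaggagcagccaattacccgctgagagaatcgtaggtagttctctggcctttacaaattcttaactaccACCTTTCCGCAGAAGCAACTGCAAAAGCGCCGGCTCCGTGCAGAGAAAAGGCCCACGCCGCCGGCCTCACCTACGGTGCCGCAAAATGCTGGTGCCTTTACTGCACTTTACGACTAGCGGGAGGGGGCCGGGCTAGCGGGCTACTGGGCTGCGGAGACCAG
BAIAP2-DT, chr17:81034670-81034969, minus strand: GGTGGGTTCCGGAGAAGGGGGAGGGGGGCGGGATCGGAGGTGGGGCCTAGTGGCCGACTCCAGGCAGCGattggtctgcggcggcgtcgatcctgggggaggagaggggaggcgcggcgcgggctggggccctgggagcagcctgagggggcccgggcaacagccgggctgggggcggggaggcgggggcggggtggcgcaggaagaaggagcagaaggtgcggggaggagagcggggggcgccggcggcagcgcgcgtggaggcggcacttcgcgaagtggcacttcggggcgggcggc
MFF-DT, chr2:227325115-227325414, minus strand: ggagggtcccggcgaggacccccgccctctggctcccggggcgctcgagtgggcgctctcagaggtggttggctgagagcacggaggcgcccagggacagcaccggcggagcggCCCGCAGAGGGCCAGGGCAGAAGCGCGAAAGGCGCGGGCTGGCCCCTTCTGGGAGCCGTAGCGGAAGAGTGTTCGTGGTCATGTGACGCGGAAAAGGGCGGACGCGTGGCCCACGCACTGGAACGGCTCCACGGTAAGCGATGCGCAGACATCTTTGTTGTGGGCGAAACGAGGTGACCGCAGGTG
HCCS-DT, chrX:11111089-11111388, minus strand: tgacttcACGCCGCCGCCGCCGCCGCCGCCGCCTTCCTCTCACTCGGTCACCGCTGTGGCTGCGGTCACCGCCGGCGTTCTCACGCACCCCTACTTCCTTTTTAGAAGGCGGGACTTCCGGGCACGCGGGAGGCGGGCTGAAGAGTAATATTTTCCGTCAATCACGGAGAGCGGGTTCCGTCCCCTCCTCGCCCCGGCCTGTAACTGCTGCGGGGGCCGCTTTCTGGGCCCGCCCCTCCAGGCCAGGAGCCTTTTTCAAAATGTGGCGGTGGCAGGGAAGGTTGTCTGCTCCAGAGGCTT
ZNF132-DT, chr19:58440198-58440497, plus strand: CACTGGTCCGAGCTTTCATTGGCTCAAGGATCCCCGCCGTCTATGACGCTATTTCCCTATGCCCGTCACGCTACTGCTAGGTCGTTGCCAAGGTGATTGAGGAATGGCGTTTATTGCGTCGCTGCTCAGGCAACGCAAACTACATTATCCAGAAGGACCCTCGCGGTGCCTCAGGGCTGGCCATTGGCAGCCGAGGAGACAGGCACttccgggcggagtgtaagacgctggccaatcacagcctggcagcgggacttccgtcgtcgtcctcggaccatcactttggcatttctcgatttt
RNASEH1-DT, chr2:3558136-3558435, plus strand: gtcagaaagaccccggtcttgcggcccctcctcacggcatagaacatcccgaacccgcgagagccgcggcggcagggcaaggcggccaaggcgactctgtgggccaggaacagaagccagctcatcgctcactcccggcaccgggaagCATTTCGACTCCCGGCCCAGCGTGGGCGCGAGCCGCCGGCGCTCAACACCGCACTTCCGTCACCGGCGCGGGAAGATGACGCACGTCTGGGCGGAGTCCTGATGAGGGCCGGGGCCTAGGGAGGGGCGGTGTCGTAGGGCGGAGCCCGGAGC
MAGOH-DT, chr1:53238360-53238659, plus strand: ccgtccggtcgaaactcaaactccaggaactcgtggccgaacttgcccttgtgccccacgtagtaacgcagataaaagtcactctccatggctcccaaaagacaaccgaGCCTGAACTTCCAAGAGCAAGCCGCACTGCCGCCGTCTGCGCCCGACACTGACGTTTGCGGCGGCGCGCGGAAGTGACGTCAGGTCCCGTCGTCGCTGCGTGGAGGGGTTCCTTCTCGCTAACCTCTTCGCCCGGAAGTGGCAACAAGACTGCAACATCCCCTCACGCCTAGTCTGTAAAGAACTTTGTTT
ZNF230-DT, chr19:44002821-44003120, minus strand: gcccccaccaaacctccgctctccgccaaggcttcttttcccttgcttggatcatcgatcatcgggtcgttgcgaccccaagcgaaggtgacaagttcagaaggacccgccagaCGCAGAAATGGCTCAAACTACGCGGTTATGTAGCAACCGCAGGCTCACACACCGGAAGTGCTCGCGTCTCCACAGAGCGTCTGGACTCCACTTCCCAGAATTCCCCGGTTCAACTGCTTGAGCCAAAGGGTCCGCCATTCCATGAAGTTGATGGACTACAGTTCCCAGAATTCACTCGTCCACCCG

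The 10 windows range from the HCCS pair, which shares 293 of 300 bases, to the BAIAP2 pair, which shares 69. The RefSeq start sites stood 53 bases apart in the RNASEH1 pair and 432 bases apart in the BAIAP2 pair. GC content was 77.3% in the BAIAP2-DT window and 54.3% in the DPH5-DT window, with 33 and 17 CpG dinucleotides. Over all matched windows the median GC content was 69% for the -DT genes and 68% for the partners, against 58.3% for all 27305 windows in the table. The ratio of observed to expected CpG had a median of 0.911 for -DT genes and 0.901 for partners, against 0.580 for all windows. High GC and CpG content mark CpG-island promoters, where divergent transcription is commonly seen.

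Short motifs were searched on both strands as exact letters, with no regard to overlap between them. Since the 2 windows of a pair overlap in 106 of 135 pairs, the -DT and partner shares count many of the same bases. The -DT windows also had a median GC content of 69%, against 58.3% for all windows, and the shares were not adjusted for this. GGGCGG, the GC box read by SP1-family factors, was in 76.2% of -DT windows and 75% of partner windows, against 44.6% of all windows. The RRAGC-DT window holds 5 such boxes, the BAIAP2-DT window 4, the RNASEH1-DT window 3, and the DPH5-DT, MAGOH-DT and ZNF230-DT windows none. CCGGAAG, an ETS-factor site, was in 28% of -DT windows and 29.4% of partner windows, against 10.7% of all, and occurs once each in the windows of HCCS-DT, ZNF132-DT, MAGOH-DT and ZNF230-DT. CCAAT, the box of NF-Y, was in 32.2% of -DT and 41.3% of partner windows, against 35.7% of all. It occurs 3 times in the ZNF132-DT window. TATAAA was in 4.2% of -DT and 6.88% of partner windows, against 12.0% of all. TGACGTCA, the cAMP response element, was in 2.80% of -DT windows, 3.75% of partner windows and 1.98% of all windows, and the MAGOH-DT window holds 1. CGCATGCG, the NRF1 core, was in 4.90%, 2.50% and 2.19% of the same sets, and TCTCGCGA, the core bound by ZBTB33, in 2.80%, 4.38% and 1.19%.

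The -DT RNAs were low beside their partners. Their mean level had a median of 1.18 CPM by library totals (range 0.503 to 17.8), and the partners had a median of 51.2 CPM (range 0.256 to 911.7). Per length of annotated exon (RPKM, the CPM divided by the exon length in kilobases), in control siRNA libraries, the median was 0.795 for the -DT RNAs and 10.1 for the partners. The partner stood a median of 12.1 times above its -DT RNA on that scale. The -DT RNA was the higher of the pair per length in 8 of 181 pairs with LINC01638 siRNA and 10 of 181 with control siRNA. A library held a median of 63 counts for a -DT RNA and 2712 for a partner, and the median SE of the log2 fold change was accordingly 0.213 for -DT RNAs and 0.0600 for partners. A difference of a size that passes in a partner may thus not be detectable in its -DT RNA.

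Between LINC01638 siRNA and control siRNA, 30 of the 184 -DT RNAs rose and 37 fell (edgeR's quasi-likelihood test, Benjamini-Hochberg adjusted p under 0.05 over all 18569 genes tested), and 117 did not pass. That is 16.3% higher and 20.1% lower. Over all genes tested 26.3% were higher and 29.6% lower. Over the 1504 long non-coding genes that reach the same minimum of 0.5 CPM, 24.5% were higher and 19.3% lower. The share passing moved with the level: at 0.5 to 1 CPM 12 of 72 -DT RNAs rose and 10 fell, while 35% of all genes at that level passed in either direction. From 1 to 3 CPM 11 of 86 rose and 19 fell, against 49.0% of all genes passing, and from 3 CPM upwards 7 of 26 rose and 8 fell, against 68.9%. The median log2 fold change was −0.03 for the -DT RNAs (range −1.64 to 1.78) and −0.00 for all genes tested. Changes of at least 2-fold were reached by 8 -DT RNAs that rose and 8 that fell, and of at least 1.5-fold by 18 and 27. Some of these reached the 0.5 CPM minimum only through the group where they are higher. The libraries of both groups did not overlap for 76 of the 184 -DT RNAs, against 61.5% of all genes tested.

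Of the 184 partner genes, 73 rose, 58 fell and 53 did not pass. Over all 13586 protein-coding genes tested, 28.6% were higher and 36.3% lower. The partners' shares were 39.7% and 31.5%, and the difference from the other genes was not tested. The median log2 fold change was 0.05 for the partners and −0.04 for protein-coding genes. At least 2-fold, 2 partners rose and 3 fell. These splits move with the scaling: with library totals in place of TMM, which shifts the median of all genes by 0.10 on the log2 scale, 38 -DT RNAs rose and 28 fell, and 93 partners rose and 44 fell.

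Both genes passed in 47 pairs. Taken alone, 36.4% of the -DT RNAs and 71.2% of the partners passed, so many pairs would have both called without any link. Whether these pair counts differ from those of unrelated calls was not tested. In 30 of the 47 pairs both genes changed in the same direction, 14 pairs with both higher and 16 with both lower. In the other 17 they changed in opposite directions, 9 with the -DT RNA higher and its partner lower and 8 with the -DT RNA lower and its partner higher. The count of opposite pairs depended on single libraries: it was 8 without control siRNA library C, 10 without LINC01638 siRNA library C and 11 without LINC01638 siRNA library A. In 20 pairs the -DT RNA alone passed, in 84 the partner alone, and in 33 neither did. The 2 estimates had the same sign in 102 of 184 pairs. Across the 184 pairs the log2 fold changes had a Pearson r of 0.23 and a Spearman rho of 0.20. That is a description over genes that share the same 6 libraries, not independent points. Over the 134 pairs without exon sequence on both strands r was 0.25 and rho 0.21, and over the 47 with it 0.19 and 0.22.

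**Figure D2:**
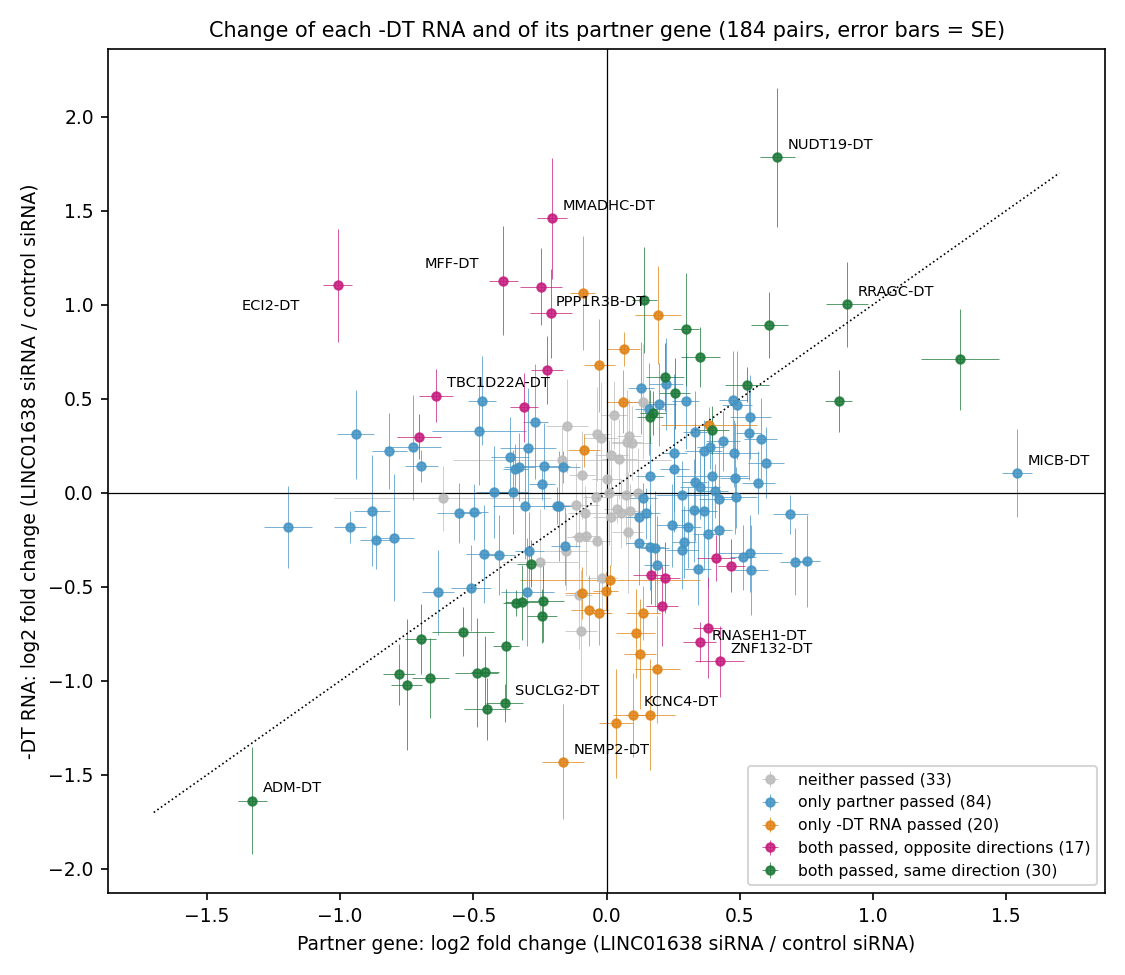
Log2 fold change (LINC01638 siRNA over control siRNA) of each -DT RNA (vertical axis) against that of its partner gene (horizontal axis) in 184 pairs, with SE bars, coloured by which gene passed the test; the dotted line marks equal change. Points fill all 4 quadrants, with ADM-DT low on both axes and ECI2-DT high for the -DT RNA and low for the partner.

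Directions were also counted by the distance between the closest annotated start sites in GENCODE 29. Among 71 pairs with starts no more than 100 bases apart, both genes changed in the same direction in 15 and in opposite directions in 4. Among 66 pairs over 100 and up to 250 bases apart the counts were 8 and 8, and among 44 pairs further apart they were 7 and 5. The difference between these classes was not tested.

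Values below are given for replicates A, B and C of each group, and pairs are grouped by the role of the partner. Over all 184 pairs, 39.7% of partners were higher and 31.5% lower, and 16.3% and 20.1% of -DT RNAs. Over all protein-coding genes tested, 28.6% were higher and 36.3% lower. The role classes are small and come from general knowledge, and no class was tested against the other genes. The partners with roles in mitochondria and metabolism formed the largest class, with 26 pairs. In it 7 -DT RNAs rose, 4 fell and 15 did not pass, while 6 partners rose and 11 fell. Of the 8 -DT RNAs with the largest rise, 6 belong to it. Among them NUDT19-DT, MFF-DT and ACAD9-DT were below 0.5 CPM in each control siRNA library, so their fold changes rest on few counts. The class median log2 fold change was 0.19 for the -DT RNAs and −0.15 for the partners. NUDT19-DT (chr19:32687089-32691750), beside the gene of a nudix hydrolase that acts on coenzyme A, had 1.41, 0.789 and 0.815 CPM in LINC01638 siRNA libraries, against 0.281, 0.481 and 0.132 CPM in control siRNA libraries (log2 fold change 1.78, SE 0.370, adjusted p = 0.000433). NUDT19 rose as well, with 26.4, 25.7 and 27.2 CPM with LINC01638 siRNA, against 15.8, 18.0 and 17.1 CPM with control siRNA (log2 fold change 0.64, SE 0.0674, adjusted p = 1.01e-07). This was the largest rise among the -DT RNAs, and it rests on 7 to 21 counts per library with control siRNA. ECI2-DT (chr6:4136072-4157385) had 1.15, 0.962 and 0.832 CPM with LINC01638 siRNA, against 0.657, 0.252 and 0.434 CPM with control siRNA (log2 fold change 1.10, SE 0.299, adjusted p = 0.00379). ECI2, an isomerase for the oxidation of unsaturated fatty acids, had 56.9, 64.9 and 58.4 CPM with LINC01638 siRNA, against 127, 119 and 117 CPM with control siRNA (log2 fold change −1.01, SE 0.0553, adjusted p = 1.28e-11). In that pair the -DT RNA was about as much higher as the partner was lower, and the groups overlapped for neither gene. The starts of the ECI2 pair are 475 bases apart and share no exon sequence.

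MMADHC, which directs vitamin B12 to its enzymes, MFF, which recruits the fission machinery to mitochondria, and HCCS, which attaches heme to cytochrome c, showed the same opposition. MMADHC-DT had 1.56, 0.712 and 1.68 CPM with LINC01638 siRNA, against 0.319, 0.504 and 0.622 CPM with control siRNA (log2 fold change 1.46, SE 0.321, adjusted p = 0.000904). Library B of the LINC01638 siRNA group stood lowest of its group, still above each control siRNA library. MMADHC had 68.2, 75 and 71.3 CPM with LINC01638 siRNA, against 89.2, 76.8 and 80.9 CPM with control siRNA (log2 fold change −0.20, SE 0.0572, adjusted p = 0.00482). The MMADHC-DT start lies 406 bases inside its partner, and 560 bases of exon are annotated on both strands. MFF-DT (chr2:227221052-227325201) had 0.751, 1.10 and 0.798 CPM with LINC01638 siRNA, against 0.432, 0.481 and 0.302 CPM with control siRNA (log2 fold change 1.13, SE 0.290, adjusted p = 0.00255). MFF had 37.6, 39.2 and 38.5 CPM with LINC01638 siRNA, against 52.2, 47.3 and 51.3 CPM with control siRNA (log2 fold change −0.39, SE 0.0551, adjusted p = 5.41e-06). HCCS-DT (chrX:10847877-11111141) had 2.69, 2.33 and 2.11 CPM with LINC01638 siRNA, against 1.16, 1.49 and 1.89 CPM with control siRNA (log2 fold change 0.65, SE 0.181, adjusted p = 0.00460). HCCS averaged 39.1 ± 2.18 CPM with LINC01638 siRNA and 45.6 ± 2.82 CPM with control siRNA (SD, n = 3 each; log2 fold change −0.22, SE 0.0601, adjusted p = 0.00338). Groups did not overlap for any gene of these 3 pairs. The falls of MMADHC and HCCS, like that of PPP1R3B below, did not pass with library totals in place of TMM (adjusted p = 0.135, 0.0875 and 0.121).

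PPP1R3B directs protein phosphatase 1 to glycogen. PPP1R3B-DT had 1.58, 1.42 and 2.03 CPM with LINC01638 siRNA, against 0.788, 0.778 and 0.792 CPM with control siRNA (log2 fold change 1.09, SE 0.205, adjusted p = 0.000132). PPP1R3B averaged 10.3 ± 0.509 CPM with LINC01638 siRNA and 12.2 ± 0.220 CPM with control siRNA (log2 fold change −0.25, SE 0.0778, adjusted p = 0.0111). The 3 control siRNA libraries were nearly equal for PPP1R3B-DT, and each LINC01638 siRNA library stood well above them. ACAD9, an assembly factor of respiratory complex I, did not pass (log2 fold change −0.09, SE 0.0469, adjusted p = 0.111), whereas ACAD9-DT had 0.605, 0.924 and 0.699 CPM with LINC01638 siRNA, against 0.281, 0.366 and 0.415 CPM with control siRNA (log2 fold change 1.06, SE 0.303, adjusted p = 0.00551). SUCLG2-DT (chr3:67654697-67947713) fell, with 6.39, 6.29 and 5.37 CPM with LINC01638 siRNA, against 14.5, 11.5 and 13.1 CPM with control siRNA (log2 fold change −1.12, SE 0.0999, adjusted p = 1.08e-08). SUCLG2, a subunit of the GTP-forming succinyl-CoA synthetase of the citric acid cycle, had 30.3, 36.2 and 30.9 CPM with LINC01638 siRNA, against 44.2, 39.0 and 43.6 CPM with control siRNA (log2 fold change −0.38, SE 0.0698, adjusted p = 0.000111). With 323 to 774 counts per library it had the most counts among the 8 largest falls.

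Among the 8 partners with roles at endosomes and lysosomes, 7 rose and none fell, and of their -DT RNAs 1 rose, none fell and 7 did not pass. Over all 184 partners 39.7% were higher and 31.5% lower, and the difference of this small class from the others was not tested. The -DT RNA that rose was RRAGC-DT. RRAGC encodes a Rag GTPase that brings mTORC1 to the lysosome. RRAGC-DT (chr1:38860000-38919396) had 1.48, 1.23 and 1.13 CPM with LINC01638 siRNA, against 0.732, 0.572 and 0.603 CPM with control siRNA (log2 fold change 1.0, SE 0.225, adjusted p = 0.000794). RRAGC had 24.4, 28.1 and 24.5 CPM with LINC01638 siRNA, against 15.2, 13.1 and 12.8 CPM with control siRNA (log2 fold change 0.90, SE 0.0794, adjusted p = 8.57e-09). Both genes thus rose by nearly the same factor, and their ratio overlapped between groups.

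Of the 10 partners with roles in the cytoskeleton, 6 fell, none rose and 4 did not pass, and 5 of their -DT RNAs fell, 1 rose and 4 did not pass. Over all protein-coding genes 28.6% were higher and 36.3% lower, and the difference between these classes was not tested. BAIAP2-DT (chr17:81029130-81034881) is the most abundant of all 184 -DT RNAs, and its partner encodes a membrane-bending protein that links small GTPases to actin. It had 14.7, 13.5 and 14.8 CPM with LINC01638 siRNA, against 21.5, 21.7 and 21.4 CPM with control siRNA (log2 fold change −0.59, SE 0.0682, adjusted p = 3.96e-07). BAIAP2 had 78.1, 80.6 and 77.3 CPM with LINC01638 siRNA, against 100.9, 102 and 96.2 CPM with control siRNA (log2 fold change −0.34, SE 0.0475, adjusted p = 4.19e-06). Both genes were lower in each LINC01638 siRNA library than in any control siRNA library. Per length the -DT RNA stood at 3.0 RPKM with LINC01638 siRNA and 4.51 RPKM with control siRNA, and BAIAP2 at 7.65 RPKM with LINC01638 siRNA and 9.68 RPKM with control siRNA.

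Of 15 partners that encode receptors, ligands, adhesion or matrix proteins, 4 rose and 7 fell, and of their -DT RNAs 2 rose and 4 fell. ADM encodes adrenomedullin, a secreted vasodilator peptide. ADM-DT (chr11:10302657-10303704) had the largest fall of the 184, with 0.238, 0.327 and 0.366 CPM with LINC01638 siRNA, against 0.844, 0.985 and 1.09 CPM with control siRNA (log2 fold change −1.64, SE 0.286, adjusted p = 6.25e-05). ADM had 70.5, 68.0 and 71.9 CPM with LINC01638 siRNA, against 162, 185 and 182 CPM with control siRNA (log2 fold change −1.33, SE 0.0542, adjusted p = 3.02e-13). Both members fell by more than 2-fold with no overlap between groups. Their annotated starts are 976 bases apart. MICB, a stress-induced ligand of the NKG2D receptor of lymphocytes, is a case of the partner moving alone. MICB had 126, 114 and 132 CPM with LINC01638 siRNA, against 40.9, 44.5 and 42.9 CPM with control siRNA (log2 fold change 1.54, SE 0.0577, adjusted p = 1.05e-13), the largest rise of any partner. MICB-DT had 1.36, 1.46 and 0.765 CPM with LINC01638 siRNA, against 1.03, 1.24 and 1.06 CPM with control siRNA, and did not pass (log2 fold change 0.10, SE 0.235, adjusted p = 0.732).

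In RNA processing and translation, 9 of 19 partners rose and 3 fell, while 1 -DT RNA rose and 4 fell. MAGOH is a core subunit of the exon junction complex. MAGOH-DT (chr1:53238610-53242783) had 0.311, 0.385 and 0.333 CPM with LINC01638 siRNA, against 0.657, 0.939 and 0.830 CPM with control siRNA (log2 fold change −1.23, SE 0.289, adjusted p = 0.00124). MAGOH overlapped between groups, at 33.1 ± 2.18 CPM with LINC01638 siRNA and 32.3 ± 1.92 CPM with control siRNA, and did not pass (log2 fold change 0.03, SE 0.0643, adjusted p = 0.671). DPH5 methylates the diphthamide precursor on elongation factor 2. DPH5-DT (chr1:101025878-101087268) had 1.74, 2.14 and 1.36 CPM with LINC01638 siRNA, against 3.70, 4.53 and 3.37 CPM with control siRNA (log2 fold change −1.15, SE 0.165, adjusted p = 6.17e-06). DPH5 had 7.66, 8.95 and 8.08 CPM with LINC01638 siRNA, against 11.9, 11.1 and 10.8 CPM with control siRNA (log2 fold change −0.45, SE 0.0867, adjusted p = 0.000181), so both fell, with 184 bases of exon on both strands. RNASEH1 cuts the RNA strand of RNA-DNA hybrids, the structures that form where nascent RNA anneals to its template. RNASEH1-DT (chr2:3558492-3561745) had 3.13, 3.18 and 3.28 CPM with LINC01638 siRNA, against 5.46, 5.5 and 5.68 CPM with control siRNA (log2 fold change −0.79, SE 0.107, adjusted p = 2.88e-06). RNASEH1 had 42.6, 47.0 and 46.3 CPM with LINC01638 siRNA, against 37.5, 33.1 and 36.1 CPM with control siRNA (log2 fold change 0.35, SE 0.0605, adjusted p = 5.72e-05). Replicates of RNASEH1-DT were close in both groups, and the pair moved in opposite directions although 125 bases of exon are annotated on both strands.

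Transcription and chromatin genes made up 22 partners, of which 11 rose and 6 fell, with 4 -DT RNAs higher and 4 lower. CTCF encodes the zinc finger protein that anchors chromatin loops. CTCF-DT (chr16:67561411-67562309) had 0.806, 0.808 and 0.749 CPM with LINC01638 siRNA, against 0.319, 0.366 and 0.471 CPM with control siRNA (log2 fold change 1.02, SE 0.282, adjusted p = 0.00426). CTCF was higher by less (log2 fold change 0.14, SE 0.0463, adjusted p = 0.0139), and that call was lost without control siRNA library C (adjusted p = 0.0716). CTBP1-DT (chr4:1249300-1288291), beside the gene of a transcriptional corepressor, is among the 4 most abundant -DT RNAs and did not pass, with 13.2, 12.1 and 12.2 CPM with LINC01638 siRNA and 13.8, 13.1 and 13 CPM with control siRNA (log2 fold change −0.09, SE 0.0750, adjusted p = 0.347). CTBP1 did not pass either (log2 fold change 0.04, SE 0.0458, adjusted p = 0.505).

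SP2-DT (chr17:47891255-47895812), beside a gene of the Sp transcription factor family, averaged 1.04 ± 0.316 CPM with LINC01638 siRNA and 1.57 ± 0.0935 CPM with control siRNA (log2 fold change −0.60, SE 0.212, adjusted p = 0.0211), while SP2 rose (log2 fold change 0.21, SE 0.0613, adjusted p = 0.00697). The SP2-DT call was lost with library totals in place of TMM (adjusted p = 0.0508). Without LINC01638 siRNA library A, LINC01638 siRNA library C or control siRNA library A it was lost as well (adjusted p = 0.0923, 0.0842 and 0.0661), and without control siRNA library C that of SP2 (adjusted p = 0.0531).

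In the zinc finger family, 6 of 15 partners rose and 3 fell, and 3 -DT RNAs rose and 4 fell. ZNF230-DT (chr19:43996896-44002836) had 0.440, 0.404 and 0.250 CPM with LINC01638 siRNA, against 0.807, 0.916 and 0.754 CPM with control siRNA (log2 fold change −1.18, SE 0.294, adjusted p = 0.00196). ZNF230 averaged 8.17 ± 0.345 CPM with LINC01638 siRNA and 7.27 ± 0.546 CPM with control siRNA and did not pass (log2 fold change 0.16, SE 0.0916, adjusted p = 0.135). ZNF132-DT (chr19:58440448-58445849) is a single exon of 5402 bases. It had 1.15, 1.17 and 0.898 CPM with LINC01638 siRNA, against 1.82, 2.31 and 1.89 CPM with control siRNA (log2 fold change −0.90, SE 0.187, adjusted p = 0.000396). ZNF132 had 7.20, 7.49 and 7.24 CPM with LINC01638 siRNA, against 5.52, 5.52 and 5.30 CPM with control siRNA (log2 fold change 0.42, SE 0.0928, adjusted p = 0.000620). The pair moved in opposite directions with no overlap for either gene. Counted without regard to strand, the log2 fold change of ZNF132 was −0.00, and the opposite strand of that gene held 1035 counts over the 6 libraries. In the same column the ZNF230-DT call was lost (adjusted p = 0.410).

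The remaining classes gave a few more pairs. RIPK2 encodes the kinase that signals from the NOD receptors of bacterial cell walls. RIPK2-DT had 16.3, 14.8 and 13.4 CPM with LINC01638 siRNA, against 7.96, 8.54 and 9.65 CPM with control siRNA (log2 fold change 0.76, SE 0.0914, adjusted p = 5.79e-07), while RIPK2 had 30.8, 33.4 and 34.7 CPM with LINC01638 siRNA, against 32.2, 29.9 and 32.4 CPM with control siRNA, and did not pass (log2 fold change 0.06, SE 0.0617, adjusted p = 0.400). The groups were apart for the -DT RNA and overlapped for its partner. In the kinase and phosphatase class of this pair, 6 of 10 partners rose and 1 fell, and 1 -DT RNA rose and 1 fell. KCNC4-DT (chr1:110208834-110209987), beside a voltage-gated potassium channel gene, had 0.641, 1.06 and 0.599 CPM with LINC01638 siRNA, against 1.6, 1.69 and 1.89 CPM with control siRNA (log2 fold change −1.18, SE 0.223, adjusted p = 0.000144). KCNC4 overlapped between groups and did not pass (log2 fold change 0.10, SE 0.0728, adjusted p = 0.271). NEMP2-DT (chr2:190534855-190568102), beside the gene of an inner nuclear membrane protein, had 0.275, 0.327 and 0.250 CPM with LINC01638 siRNA, against 0.920, 0.756 and 0.622 CPM with control siRNA (log2 fold change −1.43, SE 0.306, adjusted p = 0.000506), and NEMP2 overlapped and did not pass (log2 fold change −0.16, SE 0.0789, adjusted p = 0.0858). In these 3 pairs the -DT RNA separated the groups and its partner did not.

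B4GAT1 makes part of the glycan by which dystroglycan binds laminin, and it was 1 of 18 partners of the endoplasmic reticulum, Golgi and secretory pathway, of which 6 rose and 10 fell. Of their -DT RNAs 3 rose and 3 fell. B4GAT1-DT (chr11:66347950-66364804) had 0.989, 1.17 and 0.898 CPM with LINC01638 siRNA, against 1.43, 2.08 and 2.55 CPM with control siRNA (log2 fold change −0.99, SE 0.215, adjusted p = 0.000602). B4GAT1 had 31.0, 29.3 and 31.4 CPM with LINC01638 siRNA, against 42.8, 52.8 and 49.6 CPM with control siRNA (log2 fold change −0.66, SE 0.0683, adjusted p = 1.01e-07). Both fell together, although the -DT call was lost when strand was disregarded (adjusted p = 0.0759). TBC1D22A, of a family of Rab GTPase-activating proteins, averaged 24.3 ± 0.709 CPM with LINC01638 siRNA and 37.8 ± 2.58 CPM with control siRNA (log2 fold change −0.64, SE 0.0627, adjusted p = 3.94e-08). TBC1D22A-DT (chr22:46761894-46762563) had 2.75, 2.91 and 3.06 CPM with LINC01638 siRNA, against 2.21, 1.81 and 2.06 CPM with control siRNA (log2 fold change 0.52, SE 0.141, adjusted p = 0.00412), a rise where the partner fell. ZFAND2A, an arsenite-inducible gene whose product associates with the proteasome, belongs to the 13 pairs of ubiquitin and proteolysis, in which 6 partners rose and 2 fell and 2 -DT RNAs rose and 3 fell. ZFAND2A rose (log2 fold change 0.41, SE 0.0710, adjusted p = 5.58e-05) and ZFAND2A-DT (chr7:1160374-1165267) fell to 3.22, 3.56 and 3.64 CPM with LINC01638 siRNA, against 3.85, 5.06 and 4.41 CPM with control siRNA (log2 fold change −0.35, SE 0.125, adjusted p = 0.0231). That -DT call was lost with library totals in place of TMM (adjusted p = 0.0980), and without LINC01638 siRNA library A, control siRNA library B or control siRNA library C (adjusted p = 0.0804, 0.132 and 0.0543). C2orf74-DT (chr2:61141592-61144969) is the reverse of the usual order of levels, at 2.94 RPKM with LINC01638 siRNA and 4.06 RPKM with control siRNA, while C2orf74 stood at 0.273 RPKM with LINC01638 siRNA and 0.268 RPKM with control siRNA. C2orf74-DT fell to 8.72, 9.39 and 9.35 CPM with LINC01638 siRNA, against 12.4, 12.9 and 12.5 CPM with control siRNA (log2 fold change −0.46, SE 0.0781, adjusted p = 4.36e-05), and its partner, at 13 to 31 counts per library, did not pass.

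**Figure D3:**
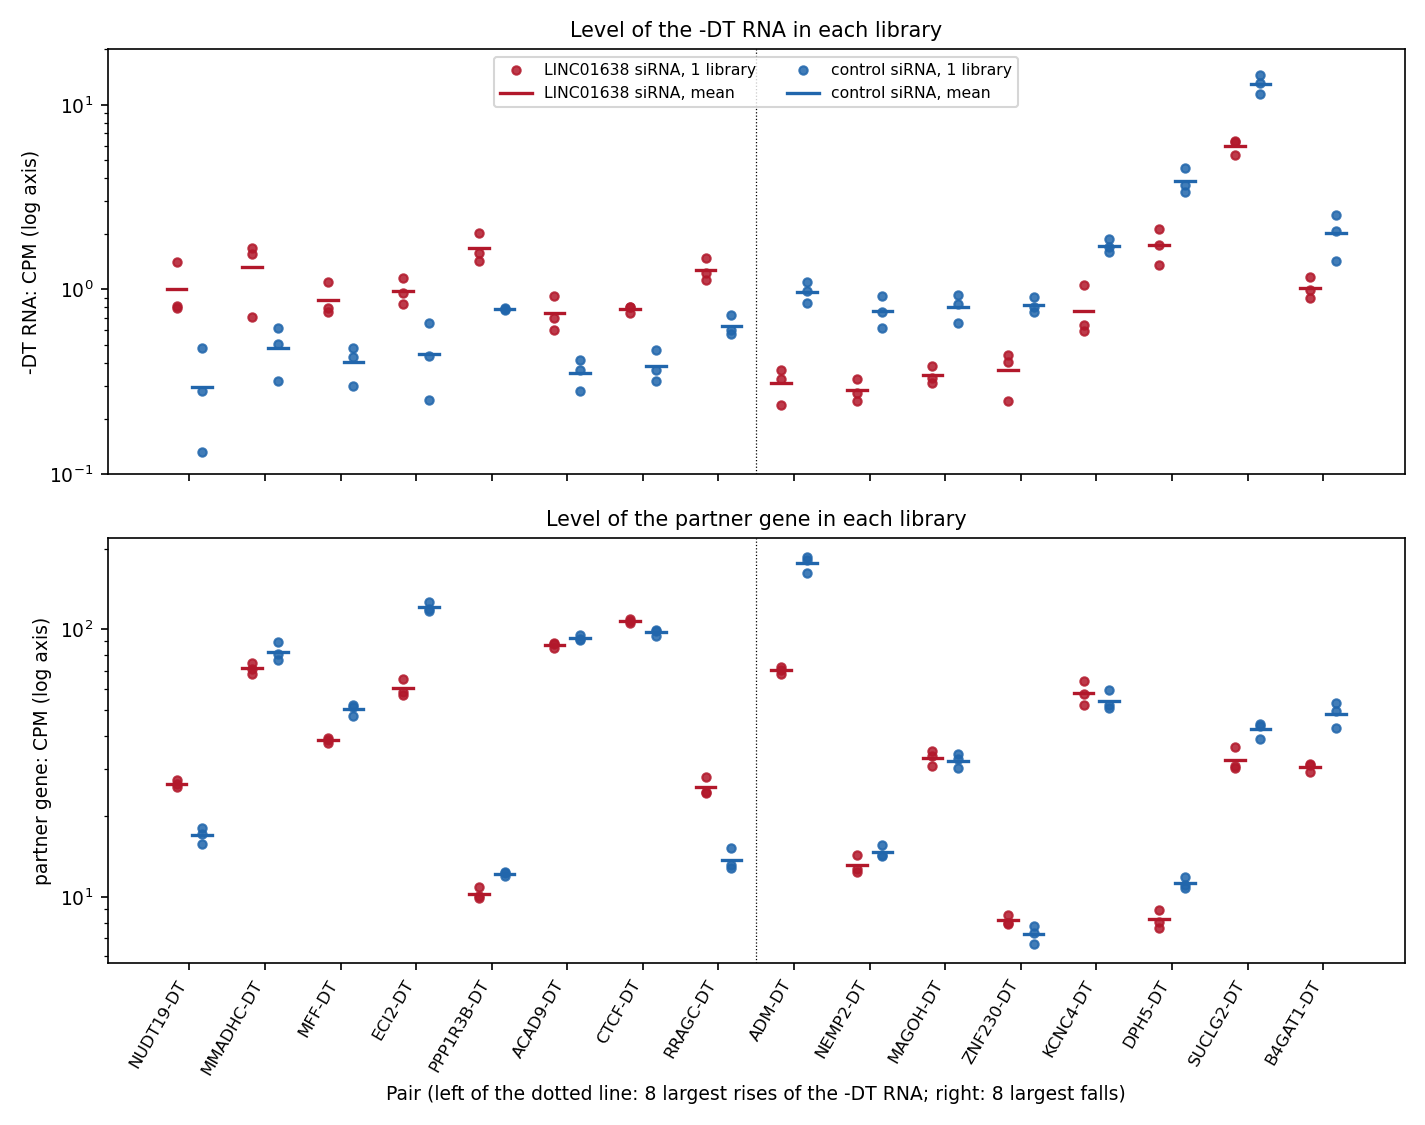
CPM (log axis) of the 8 -DT RNAs with the largest rise (left of the dotted line) and the 8 with the largest fall (right), upper panel, and of their partner genes, lower panel; points are single libraries and bars group means, LINC01638 siRNA left of control siRNA for each pair. The groups are apart for each -DT RNA in the upper panel, while MAGOH, KCNC4 and NEMP2 overlap in the lower one.

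The ratio of -DT RNA to partner RNA within a library does not depend on how libraries are scaled. The log2 ratio of counts was taken per library, with 0.5 added to each count. Its difference between groups (LINC01638 siRNA minus control siRNA) had a median of −0.13 over 184 pairs and ranged from −1.48 to 2.21. Groups did not overlap in 83 pairs (45.1%), 36 with a higher and 47 with a lower ratio with LINC01638 siRNA. As single genes, 61.5% of all genes tested and 76.1% of the partners had groups that do not overlap. The ratio takes in the change of the partner, and its share over other gene pairs was not computed. With 3 libraries against 3 the exact permutation test cannot give less than p = 0.1, so no single pair can pass by itself. The difference reached at least 1 in 12 pairs upwards and 11 downwards.

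Among the 6 largest differences above 0, ECI2-DT stood at −5.61, −6.06 and −6.12 with LINC01638 siRNA, against −7.57, −8.82 and −8.05 with control siRNA (difference 2.21). MMADHC-DT followed (1.59), then MFF-DT (1.5), PPP1R3B-DT (1.31), MVP-DT (1.26) and NUDT19-DT (1.20). In NUDT19 both genes rose, the -DT RNA by more. In the MVP pair the partner alone passed: MVP, the main protein of cytoplasmic vault particles, had 88.6, 109 and 89.9 CPM with LINC01638 siRNA, against 179, 193 and 181 CPM with control siRNA (log2 fold change −0.94, SE 0.0684, adjusted p = 1.17e-08), and MVP-DT did not pass (log2 fold change 0.31, SE 0.236, adjusted p = 0.277). Among the 6 largest differences below 0, MICB-DT (−1.48) came first, where of the pair the partner alone passed. ZNF230-DT (−1.37), KCNC4-DT (−1.30), MAGOH-DT (−1.24) and NEMP2-DT (−1.23) had a lower ratio with no call in the partner, and ZNF132-DT (−1.32) with both genes called in opposite directions. ZNF230-DT, MAGOH-DT and NEMP2-DT reached the 0.5 CPM minimum only through the control siRNA group. MFF-DT and NUDT19-DT reached it only through the LINC01638 siRNA group. The ratio differences of these pairs are thus in part a product of that minimum. ZNF132-DT stood at −2.63, −2.66 and −3.0 with LINC01638 siRNA, against −1.59, −1.25 and −1.49 with control siRNA. RRAGC-DT, by contrast, had −4.03, −4.50 and −4.43 with LINC01638 siRNA and −4.36, −4.49 and −4.39 with control siRNA, groups that overlap.

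**Figure D4:**
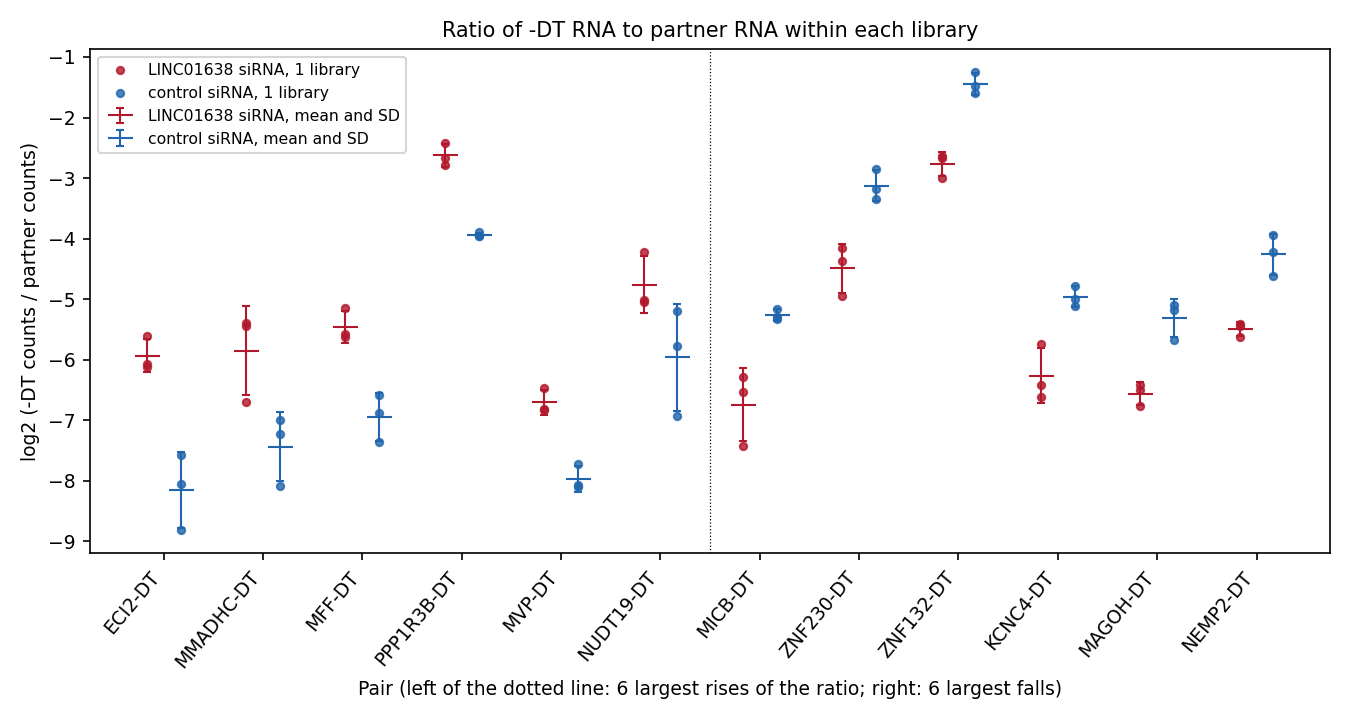
Log2 ratio of -DT counts to partner counts within each library (vertical axis) for the 6 pairs with the largest difference above 0 (left of the dotted line) and the 6 with the largest below 0 (right), with points for libraries and bars for the mean and SD of 3. The groups do not overlap in any of the 12 pairs; the difference is 2.21 for ECI2-DT and −1.48 for MICB-DT. MFF-DT, NUDT19-DT, ZNF230-DT, MAGOH-DT and NEMP2-DT reached the 0.5 CPM minimum only through the group where they are higher.

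Summed over all 184 after TMM scaling, the -DT RNAs held 391 ± 7.17 CPM with LINC01638 siRNA and 407 ± 0.681 CPM with control siRNA, and the partners held 18905 ± 67.6 CPM with LINC01638 siRNA and 18304 ± 368 CPM with control siRNA (SD, n = 3 each, exact permutation p = 0.1 for both, the smallest possible). On that scale the sum over the -DT RNAs was lower and that over the partners higher in each LINC01638 siRNA library than in any control siRNA library. With library totals the direction of the -DT sum turned round: it was 404 ± 6.79 CPM with LINC01638 siRNA and 393 ± 3.16 CPM with control siRNA, higher in each LINC01638 siRNA library than in any control siRNA library (exact permutation p = 0.1). The partner sum was higher on that scale too, at 19570 ± 82.6 CPM with LINC01638 siRNA and 17657 ± 299 CPM with control siRNA (exact permutation p = 0.1). The direction of the -DT sum thus depends on the scaling, and the ratio within pairs does not. Reads on no annotated exon of their strand were 13.2% ± 1.67 of uniquely mapped reads with LINC01638 siRNA and 9.18% ± 0.864 with control siRNA (exact permutation p = 0.1). They include reads antisense to exons. The part of that shift between groups in the -DT values was not tested. Reads on the wrong strand were a median of 0.259% of a gene's reads with LINC01638 siRNA and 0.242% with control siRNA, over 2428 protein-coding genes above 100 CPM. Their part in the -DT values of the 47 pairs with exon sequence on both strands was not tested.

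Genes that limit or process divergent transcripts were counted from 5 lists, against 28.6% higher and 36.3% lower over all protein-coding genes tested. Of 21 genes of the nuclear exosome and its adaptors, 7 rose and 8 fell, with a median log2 fold change of −0.06, against −0.00 for all genes tested. EXOSC6 (0.53), of the core ring, DIS3 (0.49), its catalytic nuclease, and TENT4B (0.46), the poly(A) polymerase of the TRAMP complex, rose, and ZFC3H1 (−0.36), the scaffold of PAXT, fell. Most other core subunits went the other way from EXOSC6. EXOSC1 (−0.26), EXOSC2 (−0.19), EXOSC3 (−0.21), EXOSC4 (−0.88), EXOSC7 (−0.30) and EXOSC8 (−0.33) fell, while EXOSC5 (0.34) and EXOSC9 (0.23) rose. ZFC3H1 had 44.1, 41.5 and 44.7 CPM with LINC01638 siRNA, against 53.6, 56.2 and 57.0 CPM with control siRNA. DIS3 had 84.8, 88.0 and 84.8 CPM with LINC01638 siRNA, against 58.9, 63.5 and 60.7 CPM with control siRNA. Neither gene overlapped between groups, and they moved in opposite directions.

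Among 21 genes of the Integrator, restrictor and cap-binding group, 7 rose and 6 fell (median 0.02). The largest change was INTS14 (1.07), with 38.9, 41.5 and 38.5 CPM with LINC01638 siRNA, against 18.4, 19.9 and 18.2 CPM with control siRNA, followed by INTS7 (0.42), INTS6 (0.42) and INTS3 (−0.35). INTS14 belongs to the Integrator arm that binds nucleic acid. Of 10 U1 snRNP proteins, 2 rose and 5 fell (median −0.16). Of the U1-specific proteins SNRPA fell (−0.60), while SNRNP70 (0.05) and SNRPC (−0.04) did not pass. Of the Sm proteins shared with other snRNPs SNRPE (−0.92), SNRPF (−0.31), SNRPD2 (−0.25) and SNRPD1 (−0.19) fell. SNRPD3 (0.93) and SNRPB (0.26) rose, and SNRPG (−0.12) did not pass. Of 20 cleavage and polyadenylation genes, 6 rose and 6 fell (median 0.02), with the endonuclease CPSF3 (−0.61) and CSTF3 (−0.38) lower and CPSF4 (0.36) and the poly(A) polymerase PAPOLG (0.50) higher. Of 19 genes of pausing and elongation, 8 rose and 6 fell (median 0.08): the pausing factor NELFE fell (−0.51), and the P-TEFb cyclins CCNT1 (0.46) and CCNT2 (0.48) and the PAF-complex subunit CTR9 (0.42) rose.

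**Figure D5:**
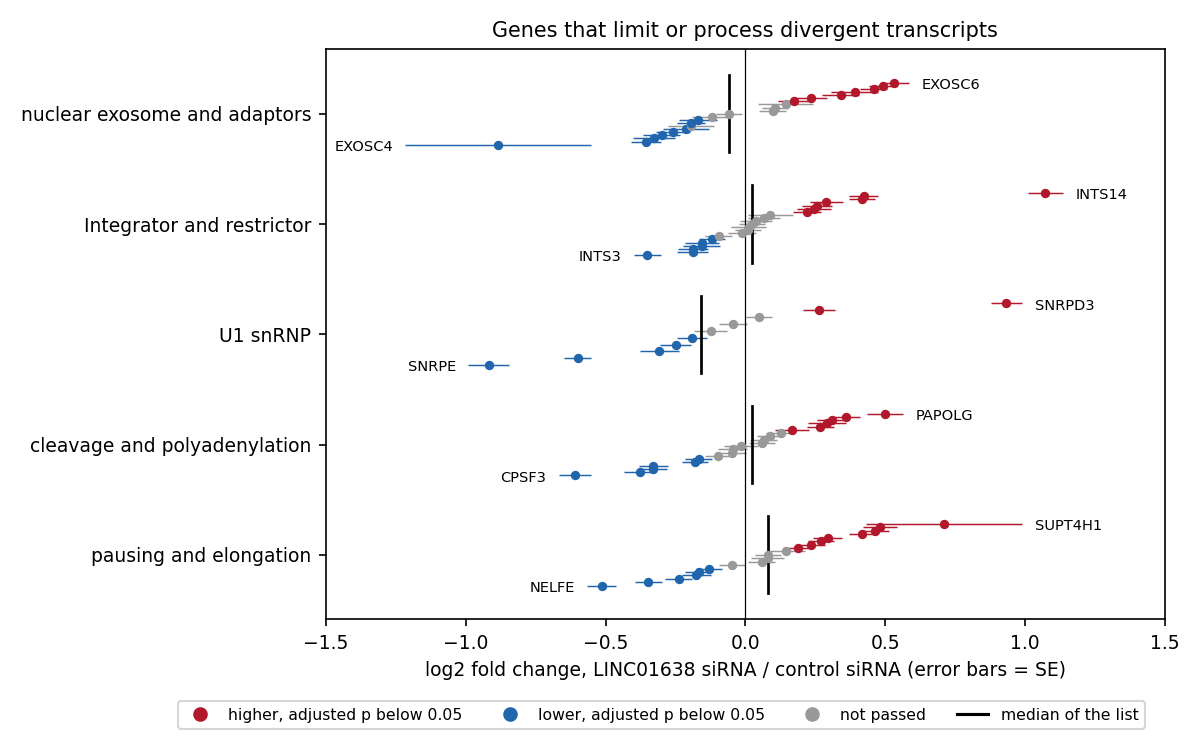
Log2 fold change (LINC01638 siRNA over control siRNA, horizontal axis, with SE bars) of each gene in 5 lists of factors that limit or process divergent transcripts, red for higher, blue for lower and grey for not passed, with a black bar at each list's median. The medians lie between −0.16 and 0.08, while single genes such as INTS14 and SNRPE stand far from 0.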

How the data were processed

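Per the labels' protocols, total RNA from 6 samples of 12Z cells was depleted of ribosomal RNA, made into directional libraries and sequenced as paired 50 bp reads. The deposited tables hold whole-number counts per gene without normalization. STAR 2.7.10b, R 4.2.1 and GRCh38 (hg38) were used, per the submitters' processing notes; the annotation release behind the counts is not given in the sources used here. Here the reverse-strand column was used, which fits the directional kit. The 4 rows that name no gene were left out of library sizes. Reads on no annotated exon of their strand made up 13.2% of uniquely mapped reads with LINC01638 siRNA and 9.18% with control siRNA, and reads over several genes 7.17% and 7.49%. Symbols were matched by gene identifier (61918 exactly, 707 without the version). Reads that map to several places are not counted, so genes with near-identical copies are uncertain. Every -DT name was paired with the gene before its suffix. Positions and exon lengths came from GENCODE 29, a release that may differ from the one counted against, and promoter windows from RefSeq (GRCh38.p14).

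Groups came from the treatment labels. edgeR 4.0.16 (R 4.3.3, filterByExpr with minimum count 10 and minimum total 15, TMM scaling, robust quasi-likelihood test, group as the only term) was fitted to all 18569 genes kept, with Benjamini-Hochberg adjustment over them and a threshold of 0.05. SE was taken from the log2 fold change and its F statistic. The fit was first run on simulated counts in which only a small share of genes changed, evenly up and down. That run does not cover data in which as many genes differ as here. Python 3.11.15, numpy 2.4.6, pandas 2.3.3 and matplotlib 3.10.9 were used for the rest. Named pairs are the 8 largest rises and 8 largest falls past the threshold without overlap, the 4 most abundant, up to 10 with opposite calls, and the 6 largest ratio differences each way where both genes reach 0.5 CPM. Up to 4 genes per list with the lowest p are named, beside LINC01638, RHOB and HDAC1. Members and lists were chosen with earlier results of these data known, and partner roles are general knowledge. Alternatives were limma-voom (limma 3.58.1), the Wald test and size factors of DESeq2 1.42.0, library totals, other filters, the column without strand, the replicate letter as a block, each library left out, a minimum of 1 CPM, and pairs with starts within 1000 bases. A count over pairs without overlapping exons and the sums by library totals were added after seeing the data.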

Additional observations from a re-analysis of the deposited data

Results flagged for a closer look

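Reads on no annotated exon of their strand, which enter none of the gene comparisons above, made up 13.2% of uniquely mapped reads with LINC01638 siRNA and 9.18% with control siRNA. It is listed because this signal outside the main measurement was above its level in the control siRNA libraries, with groups that do not overlap and an exact permutation p of 0.1, the smallest that 3 libraries against 3 can give.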

How the results depend on the processing

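Most counts stayed within 1.5 times of the reported ones (30 -DT RNAs higher and 37 lower, 73 partners higher and 58 lower, 30 pairs in the same and 17 in opposite directions). DESeq2's Wald test gave 27 -DT RNAs higher and 36 lower, limma-voom 29 and 39, no filter 24 and 38, and the column without strand 25 and 33. The count of opposite pairs was 8 to 16 when single libraries were left out. A minimum of 1 CPM leaves 112 pairs, by construction fewer, with 18 -DT RNAs higher and 27 lower, 48 partners higher and 35 partners lower. In pairs without overlapping exons, an alternative chosen after seeing the data, 20 -DT RNAs rose and 27 fell, and 22 pairs had the same and 12 opposite directions. Without strand ZNF132 turned from 0.42 to −0.0033 (log2), and the column by its construction adds the counts of the opposite strand. The replicate letter as a block gave 27 -DT RNAs higher and 38 lower, 67 partners higher and 56 lower, and 31 pairs in the same and 13 in opposite directions. Deviations of libraries with the same letter correlated at −0.08, −0.02 and −0.02, which gives no sign that the letters pair the libraries, and the labels do not say whether they do. With library totals, an alternative chosen for the sums after seeing the data, the difference in summed CPM (LINC01638 siRNA minus control siRNA) was 11.5 for the -DT RNAs, below 0 with TMM, and 1913 for the partners, above 0 with both. Library totals also brought CTBP1, KCNC4, RIPK2 and ZNF230 past the threshold. CTCF lost its call with no filter (adjusted p = 0.0687) and without strand (0.115), and NEMP2 gained one without LINC01638 siRNA library B. The stricter filter left 71 -DT RNAs and 3 partners without a value. Among the -DT RNAs it dropped are ADM-DT, NEMP2-DT, MAGOH-DT and ZNF230-DT of the largest falls. Of the largest rises it dropped NUDT19-DT, MMADHC-DT, MFF-DT, ECI2-DT, ACAD9-DT and CTCF-DT. The largest changes thus rest for the most part on -DT RNAs of low count. Pairs whose ratio did not overlap were 40 to 46 higher and 54 to 59 lower when single libraries were left out, against 36 and 47 with all, since fewer libraries overlap less often. Low counts, a median of 63 per library, limit what can be seen for single -DT RNAs.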
